A study of Mus musculus with 16 samples.

Results

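The kidney's response to an alkaline drink was read across both genotypes of the study at once: 8 mice that drank sodium bicarbonate against 8 that drank water, with genotype as a covariate. This contrast uses 16 of the 16 libraries in the series, and the genes described are those that moved the same way in wild-type and knockout animals. The mice were female C57BL/6 animals 2 to 3 months old, held specific-pathogen free, and carried either the normal Insrr gene or its knockout, IRR(-/-). The animals formed 4 groups, with 4 animals and 1 library per animal in each: wild type on water, wild type on bicarbonate, knockout on water and knockout on bicarbonate. Bicarbonate groups drank 250 mM NaHCO3 at pH 8.5 for 7 days, and all groups fasted for 12 h with their own drink before the kidneys were removed. RNA came from a 3 mm slice through the middle of the kidney, so every library mixes cortex and medulla as that cut gave them. The labels do not say which part of Insrr was removed or in which cells, and no group received sodium without bicarbonate, so the 2 ions of the drink cannot be told apart.

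Base that reaches the blood is cleared by the kidney, and the nephron divides that work. The proximal tubule takes back most filtered bicarbonate, makes ammonia from glutamine and recovers filtered citrate and other dicarboxylates, whose loss in urine is a known answer to alkali. It also secretes organic anions and drugs and is rich in mitochondria, while the collecting duct tunes the final urine through acid-secreting type A and base-secreting type B intercalated cells, which lie between principal cells that carry water and sodium. IRR, the insulin receptor-related receptor, is a receptor tyrosine kinase activated by alkaline pH outside the cell.

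Levels are RPKM, reads scaled to transcript length and library size, as deposited, and differences are on the log2(RPKM + 0.1) scale, which understates the change of low genes. The read depth behind the libraries is unknown, so no counting interval is given. Median RPKM lay between 8.44 and 8.92 in all libraries. Summed RPKM was 1488100 to 1602900 in wild type on water and 1358800 to 1543700 on bicarbonate. In the knockout it was 2730100 to 2927100 on water and 2415200 to 2728000 on bicarbonate. The main fit used the values without further scaling, and levels compared between genotypes are as deposited. The part of these sums in the differences was not tested. Insrr was at 6.73, 4.82, 6.34 and 5.83 RPKM in wild type on water, 4.85, 4.98, 4.20 and 6.498 in wild type on bicarbonate, 3.43, 3.62, 4.11 and 3.338 in the knockout on water and 3.68, 3.31, 3.71 and 3.61 in the knockout on bicarbonate, lower in every knockout library than in any wild-type one but not absent, and the drink did not change it past the threshold (-0.11 ± 0.09 on the log2 scale, SE, adjusted p = 0.721 in limma). In a principal component analysis the genotypes parted on the leading axis (25.4% of the variance), while on the next one the library of wild-type bicarbonate replicate 3 lay far off, at -50.8. That library also had 742 RPKM of the proximal tubule gene Kap, against 7148 to 9256 RPKM in the other wild-type bicarbonate libraries. The table held 16 of 16 markers of the proximal tubule, 13 of 14 of the thick ascending limb, 16 of 17 of the distal convoluted tubule, 9 of 9 of principal cells, 6 of 6 of type A and 5 of 6 of type B cells. Among the principal cell markers Aqp4 was listed at 0 in 2 libraries and Fxyd4 in 3. Of neighbouring tissues, adipose had 6 of 8 markers in the table, summing to between 69.8 and 702 RPKM, urothelium 7 of 7, summing to between 32.9 and 64.4 RPKM, and adrenal gland 1 of 8, Star at up to 2.27 RPKM. The adipose and urothelial sums of the drinks overlapped in both genotypes, and their part in the results was not tested.

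At a Benjamini-Hochberg adjusted p under 0.05 over 12943 tested genes, limma called 41 genes for the drink, or 0.317% of the genes tested. They divided into 34 genes lower on bicarbonate (0.263%) and 7 higher (0.0541%). All 41 had the same sign in both genotypes and reached an unadjusted p under 0.05 in each, which the choice by the pooled contrast favours and which is therefore a description. The drinks are called apart below where no bicarbonate library of a genotype reached the range of its water libraries. They were apart in wild type for 29 of the 41 genes, where 5.86% of all genes tested were, in the knockout for 32 (5.66% of all genes) and in both, in the same direction, for 21 (0.425%). The contrast that chose the genes uses the same values, so these counts are a description. The median size was 0.42 on the log2 scale, and only Nat8f5, Slc22a22 and Gm10639 exceeded 1. At an unadjusted p under 0.05 there were 1420 genes (11.0%), 750 lower (5.79%) and 670 higher (5.18%). These shares are the background for the gene lists below. Tested within a single genotype, 18 genes passed the adjusted threshold in wild type (0.139%) and 3 in the knockout (0.0232%).

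**Figure D1:**
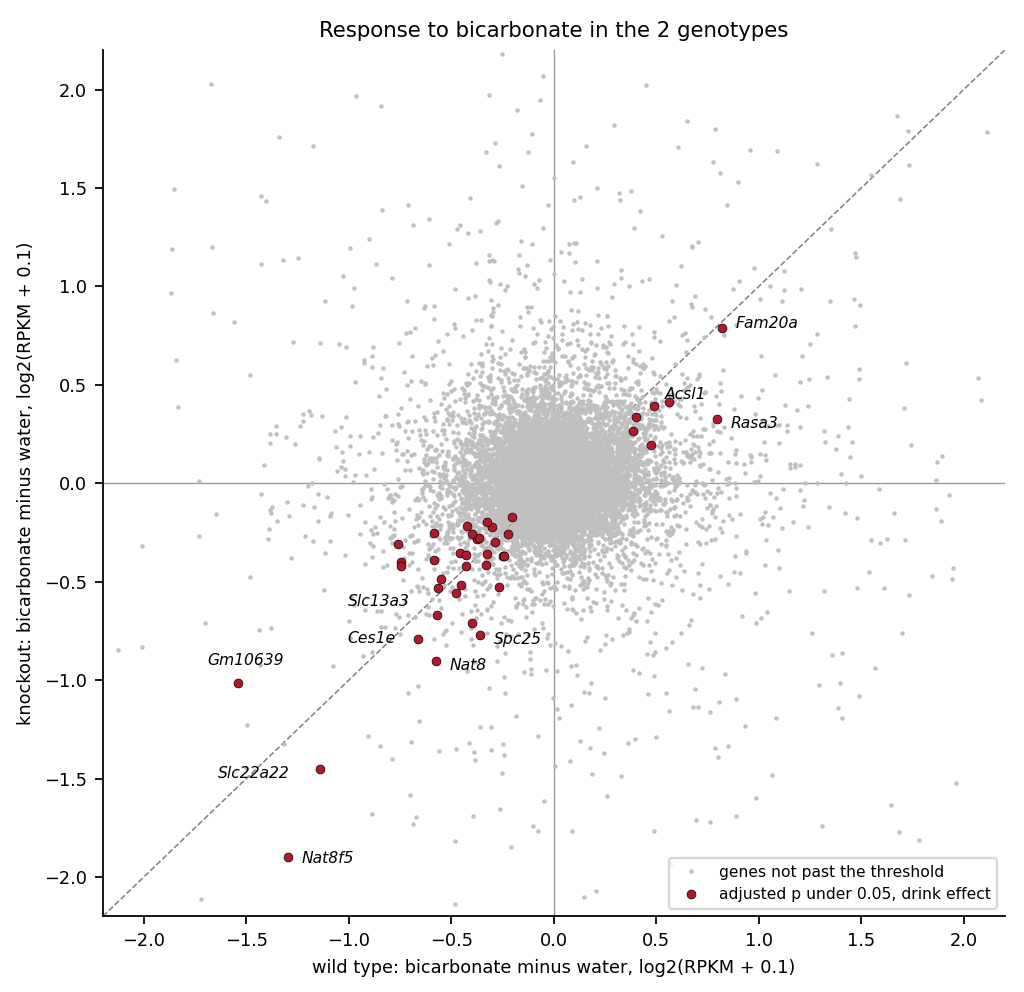
Each point is a gene, with its bicarbonate minus water difference on the log2(RPKM + 0.1) scale in wild type on the horizontal axis and in the knockout on the vertical axis. The 41 called genes are in red, 34 below 0 and 7 above it in both genotypes. They lie at varying distances from the dashed line of equal response, and 74 genes fall outside the axes.

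Across all 12943 genes the estimated differences of the 2 genotypes were almost uncorrelated. Pearson's r between the wild-type and knockout differences was 0.022 and Spearman's rho 0.063. Among the 6228 genes above a mean level of 10 RPKM r was 0.113, and over all genes without wild-type bicarbonate replicate 3 it was 0.053. These correlations are across genes, which are not independent replicates, though the 2 responses share no library. Their p-values do share a common spread per gene, estimated from all 16 libraries. Genes with a low estimated spread can therefore pass in both genotypes, which can raise the shared counts below over their backgrounds. The signs read in the other genotype do not use that spread. With 4 animals a group, noise in the estimates weakens r, so a low r does not show that the genotypes respond differently. Of the 831 genes lower in wild type at an unadjusted p under 0.05 (6.42% of genes), 64.9% were also negative in the knockout, where 46.7% of all genes were negative. In the knockout 118 of them (14.2%) were lower at an unadjusted p under 0.05, against 4.03% of all genes, and 19 were higher. The 718 genes higher in wild type (5.55%) included 54.0% positive in the knockout against 53.3% of all genes. Among them 49 (6.82%) were higher in the knockout at an unadjusted p under 0.05, against 3.96% of all genes, and 22 were lower. Read the other way, 118 of the 521 genes lower in the knockout (22.6%) were lower in wild type, against 6.42%, and 49 of the 513 higher ones (9.55%) were higher there, against 5.55%. Leaving out the knockout bicarbonate replicate 3 library lowered the total of shared genes at this level from 167 to 110.

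The smallest p belonged to a transporter of the proximal tubule. Slc13a3, the sodium-dicarboxylate cotransporter NaDC3 of the basolateral membrane, was at 226, 215, 268 and 272 RPKM in wild type on water, 149, 171, 169 and 169 in wild type on bicarbonate, 304, 321, 300.2 and 272 in the knockout on water and 188, 193, 197 and 175 in the knockout on bicarbonate (replicates 1 to 4 in that order here and below). All 8 bicarbonate libraries lay below all 8 water libraries, whichever genotype they came from. In limma the log2 difference came to -0.62 ± 0.06 (SE, n = 8 against 8, adjusted p = 0.000160), a fall of 34.9%. The response was -0.57 in wild type and -0.67 in the knockout, a difference between genotypes of -0.10 with a 95% interval of -0.35 to 0.15. Of the 7 tested transporters of dicarboxylates, citrate and sulfate, Slc13a3 was the one called and the one lower at an unadjusted p under 0.05, a count that became 2 without wild-type bicarbonate replicate 3.

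Slc22a8, which encodes the organic anion transporter OAT3, was at 196, 201, 187 and 189 RPKM in wild type on water, 151, 159.9, 151 and 166 in wild type on bicarbonate, 262, 261, 259 and 234 in the knockout on water and 209, 214, 221 and 224 in the knockout on bicarbonate. Every bicarbonate library was below every water library of its own genotype, although knockout levels exceeded wild-type levels on either drink. Pooled over genotypes, it fell by 0.26 ± 0.04 on the log2 scale (SE, adjusted p = 0.0150 in limma). Slc22a6, its neighbour and the gene of OAT1, was at 108, 103, 128 and 136 RPKM in wild type on water, 93.2, 88.5, 106 and 105 in wild type on bicarbonate, 146, 144, 150.2 and 133 in the knockout on water and 87.9, 105, 106 and 99.8 in the knockout on bicarbonate. The knockout groups were apart, and the wild-type groups overlapped. Its log2 difference was -0.40 ± 0.07 (adjusted p = 0.0301), -0.27 in wild type and -0.53 in the knockout. The genes are adjacent in the genome, with RefSeq start sites 24.8 kb apart in GRCm38.p6.

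The 250 bases before the start sites of these neighbours are shown because the pair moved together. In RefSeq for GRCm38.p6 they are chr19:8592932-8593181 for Slc22a8 and chr19:8617746-8617995 for Slc22a6, both on the plus strand, and capitals mark GTTAAT, part of the site recognised by the transcription factor HNF1, a regulator of proximal tubule genes.
Slc22a8: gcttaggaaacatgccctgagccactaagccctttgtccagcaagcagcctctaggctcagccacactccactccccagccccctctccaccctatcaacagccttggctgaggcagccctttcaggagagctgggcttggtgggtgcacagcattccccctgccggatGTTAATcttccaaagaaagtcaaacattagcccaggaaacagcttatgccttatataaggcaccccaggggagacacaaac
Slc22a6: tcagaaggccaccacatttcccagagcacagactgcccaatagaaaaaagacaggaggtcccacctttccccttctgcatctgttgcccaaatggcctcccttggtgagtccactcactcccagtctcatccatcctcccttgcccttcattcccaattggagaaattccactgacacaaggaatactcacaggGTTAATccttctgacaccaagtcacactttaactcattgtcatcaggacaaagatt
The match begins 81 bases before the start of Slc22a8 and 56 bases before that of Slc22a6. Searched on both strands, GTTAAT occurred in 6.43% of 32851 RefSeq windows of this length, in 5.41% of the 10178 tested genes with a window and in 5 of the 34 called genes with one: Enpp6, Nat8, Nat8f5, Slc22a6 and Slc22a8. The window of Slc13a3, read in the same way, held no match. The motif was chosen after the values were seen. A match is a run of letters and not a measured binding site.

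Slc22a22, the kidney prostaglandin transporter OAT-PG, had the largest change of the family. It was at 38.3, 34.8, 22.1 and 42.3 RPKM in wild type on water, 11.9, 18.3, 9.59 and 24.8 in wild type on bicarbonate, 38.1, 55.6, 59.4 and 26.0 in the knockout on water and 16.2, 15.9, 16.4 and 13.6 in the knockout on bicarbonate. Knockout libraries on bicarbonate sat within a narrow band below all knockout libraries on water, while the wild-type groups overlapped, with water replicate 3 below bicarbonate replicate 4. This gave a log2 difference of -1.30 ± 0.21 (SE, adjusted p = 0.0150 by limma), a fall of 59.3%. Of the 24 organic ion transporters tested, 9 were lower at an unadjusted p under 0.05 and none was higher, and 13 were negative in both genotypes, against 24.9% of all genes. The list's median difference was -0.18, against 0.01 over all genes. Slc22a4, a carnitine and ergothioneine carrier, had a difference of -0.39 (adjusted p = 0.172), and Slc22a2, the organic cation transporter OCT2, -0.29 (adjusted p = 0.190). Neither passed the threshold.

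**Figure D2:**
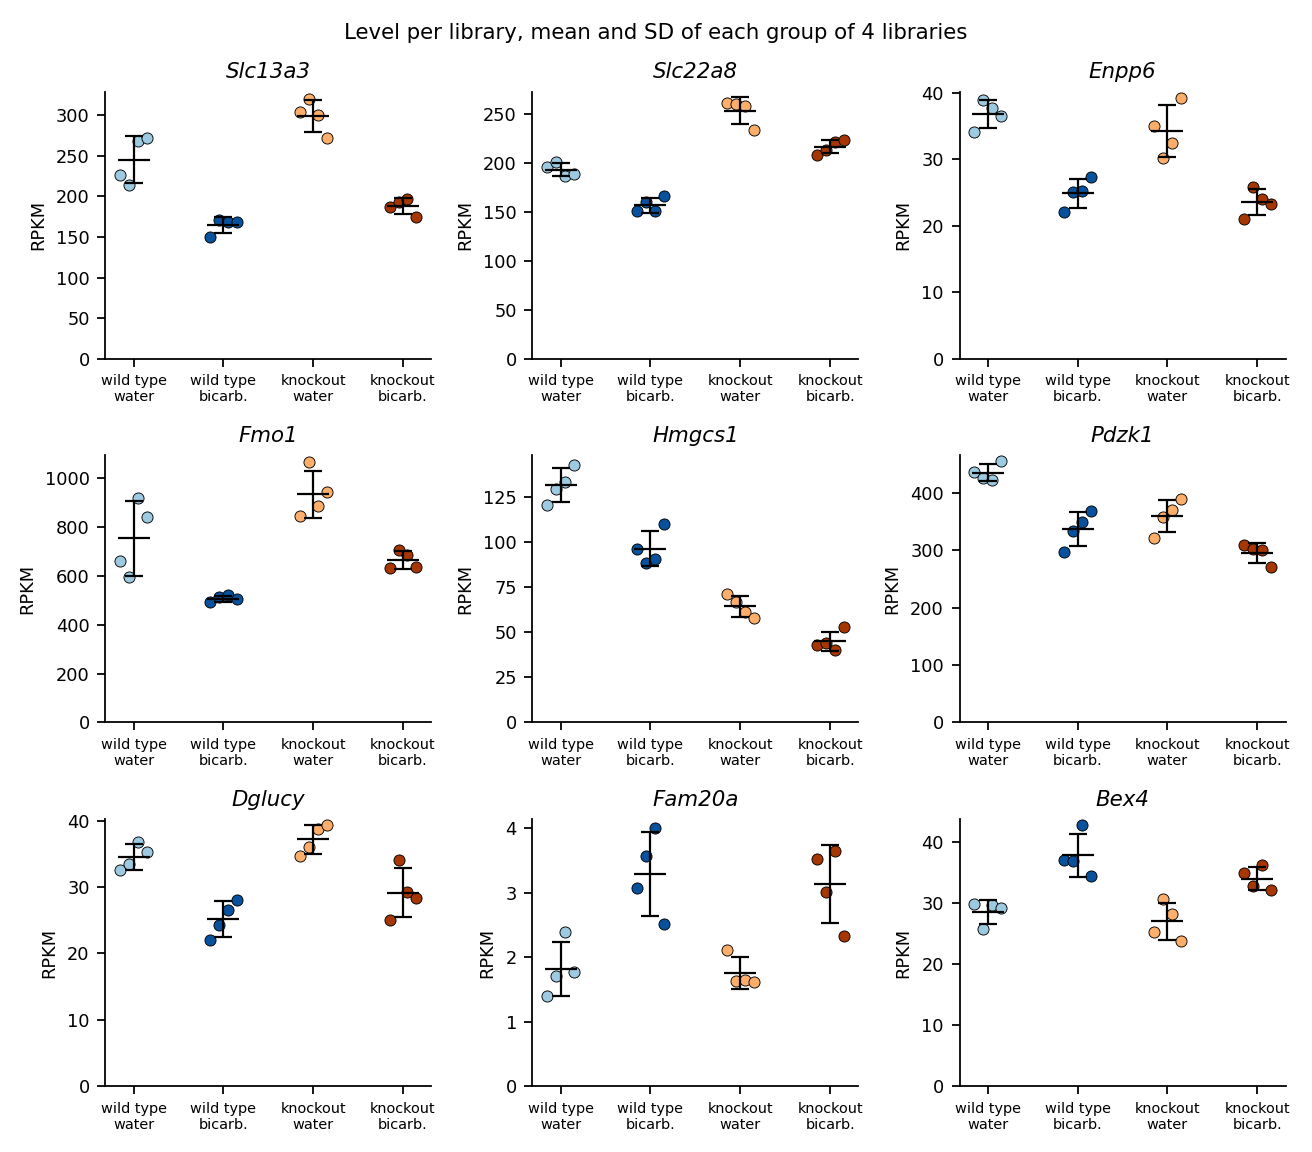
RPKM of 9 genes in each library (points) with the mean and SD of each group of 4 libraries (bars), by genotype and drink. Slc13a3, Slc22a8, Enpp6, Fmo1, Hmgcs1, Pdzk1 and Dglucy are lower and Fam20a and Bex4 higher on bicarbonate, with no overlap between drinks within either genotype.

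Other called carriers of the tubule cell also fell. Slc6a20b, a member of the sodium-coupled amino acid transporter family, was at 91.4, 85.8, 69.7 and 76.8 RPKM in wild type on water, 49.97, 53.8, 50.9 and 60.6 in wild type on bicarbonate, 65.3, 66.4, 70.1 and 66.7 in the knockout on water and 58.2, 58.6, 49.8 and 59.5 in the knockout on bicarbonate. The drinks did not overlap in either genotype, and the wild-type fall (-0.58) was larger than that of the knockout (-0.25), at an unadjusted interaction p of 0.0171. Its pooled difference was -0.42 ± 0.07 (SE, limma adjusted p = 0.0271). Slc16a9, a monocarboxylate transporter family member linked to carnitine export, went from 64.2 ± 3.80 to 43.2 ± 7.57 RPKM in wild type and from 58.9 ± 11.0 to 44.2 ± 1.20 RPKM in the knockout (SD, n = 4 each). That is a log2 difference of -0.49 ± 0.09 (adjusted p = 0.0363). Among the 22 amino acid transporters and the 15 glucose and monocarboxylate transporters these were the only called members, with 2 and 3 members lower and none and 2 higher at an unadjusted p under 0.05. Without wild-type bicarbonate replicate 3 1 amino acid transporter was higher at that level.

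Pdzk1, the scaffold that ties brush border transporters to the membrane skeleton, was at 437, 426, 422 and 456 RPKM in wild type on water, 297, 334, 349 and 368 in wild type on bicarbonate, 322, 358, 370.3 and 389 in the knockout on water and 309.8, 302, 301 and 270.2 in the knockout on bicarbonate. The bicarbonate libraries were below the water libraries within each genotype, and the wild-type means were the higher ones. By limma the pooled change was -0.33 ± 0.05 (log2, SE, adjusted p = 0.0150), and the interaction was 0.09 with a 95% interval of -0.13 to 0.31. Slc9a3r1, the related scaffold NHERF1, had a difference of -0.18 and an unadjusted p of 0.00531 but did not pass (adjusted p = 0.214). Of 18 brush border and endocytosis genes tested, 14 were negative in both genotypes and none was positive in both, against 24.9% and 26.8% of all genes. The median over all 18 was -0.07, and 4 reached an unadjusted p under 0.05, all lower, or 2 without wild-type bicarbonate replicate 3.

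Of the 34 lower genes, 3 are on the list of 16 proximal tubule markers, Slc13a3, Slc22a8 and Slc22a6. In bulk tissue, fewer cells of a type and less RNA per cell cannot be told apart. With these 3, 7 of the 16 markers were lower at an unadjusted p under 0.05, none was higher and no other was called, and the median difference was -0.16. Without Kap, their summed level was 6095 to 6535 RPKM in wild type on water and 5245 to 5985 RPKM on bicarbonate. In the knockout it was 5761 to 6425 RPKM on water and 5536 to 5870 RPKM on bicarbonate. The wild-type ranges were apart and the knockout ranges overlapped, and the part of this in the called genes was not tested. Slc34a1, the phosphate transporter that marks the same cells, had a difference of -0.16 (adjusted p = 0.383), smaller than that of Slc13a3.

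Both called genes of cholesterol synthesis fell. Hmgcs1, cytosolic HMG-CoA synthase at the head of the pathway, was at 121, 129, 133 and 143 RPKM in wild type on water, 96.2, 88.4, 90.7 and 109.6 in wild type on bicarbonate, 71.1, 66.5, 61.4 and 57.9 in the knockout on water and 42.8, 44.2, 40.3 and 52.6 in the knockout on bicarbonate. Drinks were apart within each genotype, and all knockout libraries were below all wild-type libraries. Pooled over genotypes, it fell by 0.48 ± 0.07 on the log2 scale (SE, adjusted p = 0.00639 in limma), -0.45 in wild type and -0.52 in the knockout. Nsdhl, a sterol dehydrogenase of the later steps, was at 20.2, 23.2, 20.6 and 23.4 RPKM in wild type on water, 16.9, 16.5, 16.5 and 17.97 in wild type on bicarbonate, 17.4, 20.2, 23.6 and 20.3 in the knockout on water and 17.1, 16.3, 16.1 and 17.2 in the knockout on bicarbonate. Its bicarbonate libraries varied little and all lay below the water libraries of their genotype, at a difference of -0.32 ± 0.06 (adjusted p = 0.0339). Of the 25 genes of the pathway tested, 6 were lower at an unadjusted p under 0.05 and none higher, and 13 were negative in both genotypes. Ebp (-0.40, adjusted p = 0.171) and Cyp51 (-0.60, adjusted p = 0.468), enzymes of the sterol ring steps, were not called. The list median was -0.22 in wild type and -0.04 in the knockout, and that difference was not tested.

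The Hmgcs1 promoter is shown because the gene is a textbook target of SREBP, the sterol-sensing transcription factor. The 250 bases before its RefSeq start in GRCm38.p6 are chr13:119690101-119690350, plus strand, and capitals mark TCACCCCAC, a match to the sterol regulatory element core TCACNCCAC.
Hmgcs1: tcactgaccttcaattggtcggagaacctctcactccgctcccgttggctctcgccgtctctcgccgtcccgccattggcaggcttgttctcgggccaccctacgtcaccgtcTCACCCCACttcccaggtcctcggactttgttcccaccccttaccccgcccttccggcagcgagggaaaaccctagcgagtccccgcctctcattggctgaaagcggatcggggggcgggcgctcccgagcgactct
The match begins 137 bases before the start. On either strand the motif, chosen after the values were seen, occurred in 1.05% of all windows, 1.27% of tested genes with a window and 2 of 34 called genes, Hmgcs1 and Acsl1. Hmgcs1 was lower and Acsl1 higher on bicarbonate.

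Enpp6, a phosphodiesterase that cleaves glycerophosphocholine and related choline lipids, had the second smallest p. It was at 34.1, 38.9, 37.7 and 36.5 RPKM in wild type on water, 22.0, 25.0, 25.2 and 27.4 in wild type on bicarbonate, 35.0, 30.2, 32.5 and 39.2 in the knockout on water and 21.1, 25.9, 24.0 and 23.3 in the knockout on bicarbonate. All 8 bicarbonate libraries were below all 8 water libraries, and the genotypes were alike in level on each drink. This gave a log2 difference of -0.55 ± 0.06 (SE, adjusted p = 0.00113 by limma), with an interaction of 0.03 with a 95% interval of -0.24 to 0.31. Its promoter window, chr8:46986637-46986886 on the plus strand in GRCm38.p6, holds the same HNF1 letters (capitals) as those of the organic anion transporters, 191 bases before the start.
Enpp6: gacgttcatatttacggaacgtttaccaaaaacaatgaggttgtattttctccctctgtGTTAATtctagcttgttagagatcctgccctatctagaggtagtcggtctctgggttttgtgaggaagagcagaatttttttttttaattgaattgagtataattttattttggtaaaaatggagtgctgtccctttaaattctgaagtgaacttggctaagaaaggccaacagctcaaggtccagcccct
Of 14 choline and betaine genes tested, 5 were lower at an unadjusted p under 0.05 and none was higher. Enpp6 was the one called. Aldh7a1, which can oxidise betaine aldehyde (-0.20, adjusted p = 0.119), Gamt, which makes creatine (-0.40, adjusted p = 0.215), and Sardh, which oxidises sarcosine (-0.22, adjusted p = 0.301), did not pass. Their list median was -0.25 in wild type and -0.05 in the knockout.

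Drug metabolism was the list with the most called genes, 4 of 34 tested, all lower, against 0.263% of all genes tested. The called share was larger among the proximal tubule markers (3 of 16) and the organic ion transporters (3 of 24). Fmo1, a flavin monooxygenase, was at 659.5, 593, 917 and 843 RPKM in wild type on water, 491, 512, 520.5 and 505 in wild type on bicarbonate, 846, 1064, 884 and 941 in the knockout on water and 631, 705, 684 and 636 in the knockout on bicarbonate. Wild-type bicarbonate libraries sat close together below a scattered water group, and the knockout drinks were also apart. By limma the pooled change was -0.52 ± 0.08 (log2, SE, adjusted p = 0.0150). Ces1d, a carboxylesterase, went from 266 ± 50.5 to 189.5 ± 13.7 RPKM in wild type and from 236 ± 32.8 to 161 ± 24.1 RPKM in the knockout (SD, n = 4 each), with no overlap, a difference of -0.52. Its relative Ces1e was at 46.7, 49.5, 32.7 and 31.0 RPKM in wild type on water, 22.6, 26.3, 20.7 and 30.2 in wild type on bicarbonate, 32.7, 34.4, 35.2 and 38.5 in the knockout on water and 27.0, 17.3, 20.2 and 17.9 in the knockout on bicarbonate. The drinks were apart in both genotypes for Ces1e, with a difference of -0.73 ± 0.12 (adjusted p = 0.0150), a fall of 39.6%.

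Nat8f5, of the N-acetyltransferase 8 family, had the largest difference of all called genes. It was at 11.7, 9.65, 4.95 and 13.4 RPKM in wild type on water, 2.12, 2.68, 8.67 and 3.87 in wild type on bicarbonate, 13.7, 23.4, 27.4 and 14.9 in the knockout on water and 7.47, 5.99, 4.38 and 3.28 in the knockout on bicarbonate. The knockout drinks were apart, but in wild type replicate 3 of each drink lay on the side of the other. Its difference was -1.60 ± 0.30 (SE, limma adjusted p = 0.0339) and -1.80 without wild-type bicarbonate replicate 3. Nat8, which acetylates cysteine conjugates to mercapturates, was at 43.9, 42.1, 35.5 and 53.9 RPKM in wild type on water, 22.4, 27.0, 46.8 and 25.3 in wild type on bicarbonate, 51.9, 74.2, 57.2 and 57.9 in the knockout on water and 39.1, 35.5, 28.7 and 26.0 in the knockout on bicarbonate. It had the same outlying wild-type library and a difference of -0.74 ± 0.15 (adjusted p = 0.0429), or -0.86 without that library. Both are near relatives, as are Ces1d and Ces1e, and reads of such families can be split between members by the counting.

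Cyp2j5, a fatty acid epoxygenase of the kidney, fell by 0.33 on the log2 scale (limma adjusted p = 0.0429), from 489 ± 29.4 to 371 ± 19.0 RPKM in wild type and from 461 ± 65.9 to 383 ± 34.9 RPKM in the knockout (SD, n = 4 each). Ugt2b34, a glucuronosyltransferase, fell by 0.40 (adjusted p = 0.0415). Of the 34 drug metabolism genes, 12 were lower and 2 higher at an unadjusted p under 0.05, and the called ones were Fmo1, Ces1d, Cyp2j5 and Nat8. Ugt1a2 came close, at -0.54 (adjusted p = 0.0608), and Cyp2e1 had a like size but a wide spread, -0.62 ± 0.23 (adjusted p = 0.308). The list's median was -0.04, and -0.12 without wild-type bicarbonate replicate 3, while that of all genes was 0.01 with or without it.

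Of the antioxidant enzymes, 1 was called. Gsta2, a glutathione transferase, was at 726, 761, 866 and 835 RPKM in wild type on water, 619, 629, 719 and 578 in wild type on bicarbonate, 639, 628, 584 and 618 in the knockout on water and 551, 483, 515 and 391 in the knockout on bicarbonate. The drinks were apart in each genotype and the knockout was lower on both, at a difference of -0.34 ± 0.07 (SE, limma adjusted p = 0.0429). Prdx6, a peroxiredoxin (-0.28, adjusted p = 0.0618), and Gclm, the modifier subunit of glutathione synthesis (-0.14, adjusted p = 0.143), lay outside the threshold, as did Srxn1, sulfiredoxin, on the higher side (0.33, adjusted p = 0.146). Of 25 antioxidant genes tested, 7 were lower and 1 higher at an unadjusted p under 0.05. Gm10639, a predicted gene outside the naming rule and chosen after its values were seen, was at 41.9, 29.97, 30.6 and 34.0 RPKM in wild type on water, 11.3, 14.3, 9.56 and 11.5 in wild type on bicarbonate, 14.4, 25.6, 25.7 and 10.9 in the knockout on water and 12.9, 10.3, 7.58 and 6.03 in the knockout on bicarbonate. All wild-type bicarbonate libraries were far below all wild-type water libraries, the knockout groups overlapped, and the difference was -1.28 ± 0.20 (adjusted p = 0.0150).

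The next 6 called genes, of mitochondria or peroxisomes, were put together after their values were seen and are no list of their own. Mpc1, a subunit of the carrier that brings pyruvate into mitochondria, was at 449.9, 457, 449.5 and 469.7 RPKM in wild type on water, 399, 377, 416 and 393 in wild type on bicarbonate, 404, 441, 434 and 451 in the knockout on water and 395, 383, 374 and 382 in the knockout on bicarbonate. The groups were apart in both genotypes at a difference of -0.19 ± 0.03 (SE, limma adjusted p = 0.0339), a fall of 12.3%. Sqor, which oxidises sulfide into the respiratory chain, fell by 0.24 with no overlap in either genotype (adjusted p = 0.0294). Ak4, an adenylate kinase of the matrix, was at 157, 155, 126 and 152 RPKM in wild type on water, 63.8, 77.8, 104 and 114 in wild type on bicarbonate, 134, 157, 147 and 132 in the knockout on water and 106, 118, 106 and 101.3 in the knockout on bicarbonate. Its drinks were apart within each genotype, with the wider scatter in wild type on bicarbonate, and the difference was -0.57 ± 0.11 (adjusted p = 0.0363). Dglucy, the mitochondrial D-glutamate cyclase, was at 32.5, 33.4, 36.9 and 35.2 RPKM in wild type on water, 22.0, 24.2, 26.5 and 28.0 in wild type on bicarbonate, 34.7, 36.1, 38.7 and 39.3 in the knockout on water and 25.1, 34.0, 29.2 and 28.4 in the knockout on bicarbonate. No bicarbonate library reached a water library of its genotype, and the difference was -0.41 ± 0.07 (adjusted p = 0.0150). Gatb, part of the enzyme that charges mitochondrial glutamine tRNA, fell by 0.26 (adjusted p = 0.0465). Nudt19, a peroxisomal coenzyme A hydrolase of the kidney, fell by 0.42 (adjusted p = 0.0429), with drinks overlapping in both genotypes.

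Citric acid cycle enzymes leaned the same way without any single call. Of 22 tested, 11 were lower at an unadjusted p under 0.05 and none was higher, where 5.79% of all genes were lower, and 15 were negative in both genotypes. The list's median was -0.11, -0.05 in wild type and -0.15 in the knockout. Dlst, of the oxoglutarate dehydrogenase complex, was at 102, 92.7, 108 and 103 RPKM in wild type on water, 80.3, 83.1, 94.8 and 96.7 in wild type on bicarbonate, 80.7, 72.2, 78.2 and 72.5 in the knockout on water and 66.8, 63.0, 66.1 and 65.7 in the knockout on bicarbonate, a difference of -0.21 ± 0.05 (SE, limma adjusted p = 0.1002). Its knockout drinks were apart, and its wild-type drinks overlapped. Idh3b (-0.21, adjusted p = 0.119) and the succinate dehydrogenase subunits Sdha (-0.31, adjusted p = 0.299), Sdhb (-0.16, adjusted p = 0.223) and Sdhc (-0.13, adjusted p = 0.143) had negative differences in both genotypes, as did Aco1, the cytosolic aconitase (-0.26, adjusted p = 0.191). Idh3a was listed at 0 in all wild-type libraries and so adds nothing in that genotype. Members of a list share their libraries and are not independent of each other.

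**Figure D3:**
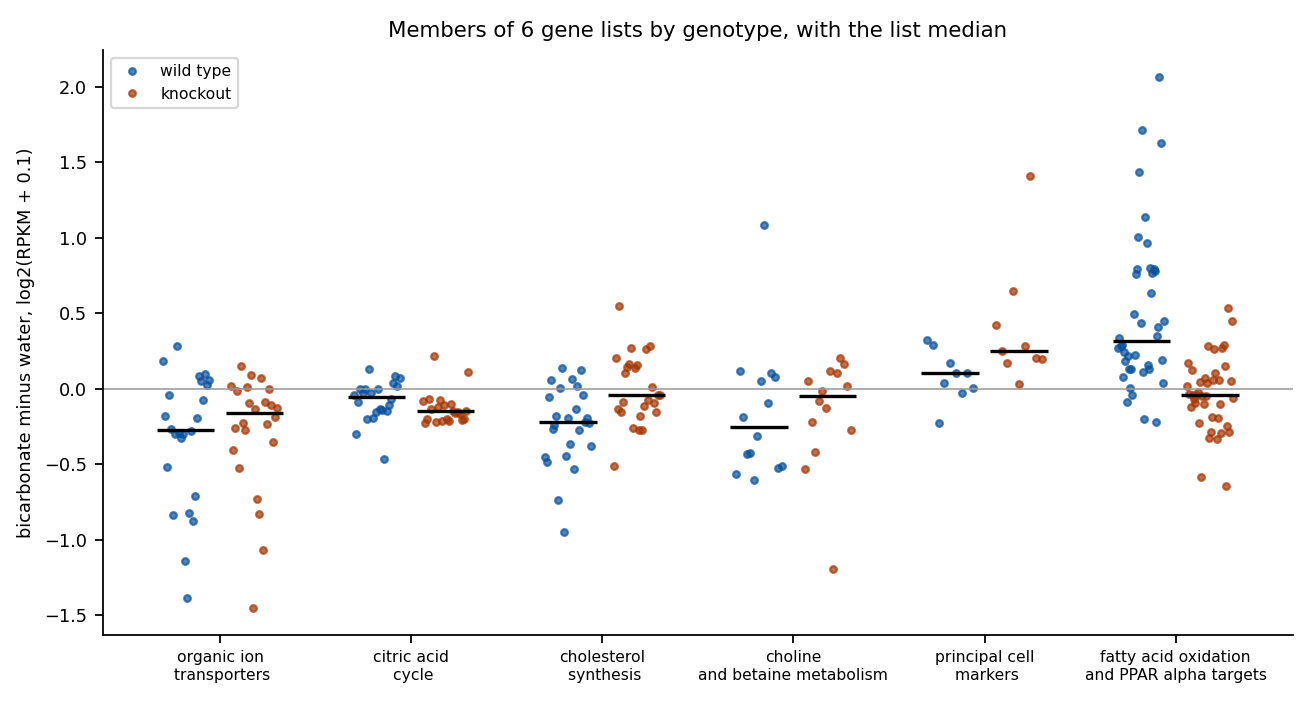
Bicarbonate minus water differences on the log2(RPKM + 0.1) scale for the members of 6 gene lists, wild type in blue and knockout in brown, with the list median as a bar. Organic ion transporter and citric acid cycle medians are negative in both genotypes and the principal cell median is positive in both, while fatty acid oxidation genes have a median of 0.32 in wild type and -0.04 in the knockout.

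Among the genes that handle acid and base directly, 1 was called. Car2, the cytosolic carbonic anhydrase II of tubule and intercalated cells, was at 247, 235, 252 and 272 RPKM in wild type on water, 206, 204, 198 and 239 in wild type on bicarbonate, 251, 262, 273 and 234 in the knockout on water and 193, 206, 198 and 193 in the knockout on bicarbonate. The knockout drinks were apart and the wild-type drinks overlapped through bicarbonate replicate 4. Pooled over genotypes, it fell by 0.31 ± 0.05 on the log2 scale (SE, adjusted p = 0.0150 in limma), -0.25 in wild type and -0.37 in the knockout. Car4, the membrane-bound carbonic anhydrase IV, had a difference of 0.37 (adjusted p = 0.230), and the other 11 tested carbonic anhydrases each had an unadjusted p above 0.05. Their differences ran from -0.56 for Car3 to 0.27 for Car11.

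None of the 15 tested bicarbonate and proton exchangers was called. Slc9a3, Slc4a7, Slc4a9 and Slc26a3 were also on this list but were absent from the deposited values, so nothing is known of them here. Slc4a8, a sodium-dependent exchanger, was at 2.56 ± 0.595 and 3.11 ± 0.641 RPKM in wild type on water and bicarbonate and at 2.75 ± 0.533 and 4.64 ± 0.350 RPKM in the knockout (SD, n = 4 each; 0.51, limma adjusted p = 0.148). Slc26a4, pendrin, the apical chloride-bicarbonate exchanger of type B cells, was at 35.8, 46.6, 33.0 and 38.0 RPKM in wild type on water, 35.8, 33.8, 30.4 and 32.8 in wild type on bicarbonate, 15.8, 21.3, 21.0 and 19.0 in the knockout on water and 17.8, 15.1, 15.1 and 14.95 in the knockout on bicarbonate. Bicarbonate means were the lower ones in both genotypes, but the difference of -0.24 ± 0.08 did not pass (adjusted p = 0.236). Slc4a4, the basolateral sodium-bicarbonate cotransporter of the proximal tubule, differed by -0.02 ± 0.06, with a 95% interval of -0.15 to 0.11. Slc4a1, the anion exchanger of type A cells, had a difference of 0.39 (adjusted p = 0.383), Slc4a3 of 0.29 (adjusted p = 0.244) and Slc9a2 of -0.32 (adjusted p = 0.338). Other members were Slc4a5 at 0.46, Slc26a6 at 0.22, Slc4a11 at 0.11, Slc26a11 at 0.02, Slc26a7 at 0.02, Slc4a2 at -0.03, Slc9a8 at -0.20 and Slc9a4 at -0.21, none at an unadjusted p under 0.05.

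Type A and type B intercalated cell markers were not called either. The 5 tested type B genes had differences between -0.24 (Slc26a4) and 0.51 (Slc4a8), with Hmx2 at -0.11, Oxgr1 at -0.15 and Insrr as given above. The 6 type A genes ran from -0.03 (Kit) to 0.39 (Slc4a1), with a median of 0.43 in wild type and -0.12 in the knockout. Their pooled median was 0.12, and 0.04 without wild-type bicarbonate replicate 3. The 1 member higher at an unadjusted p under 0.05, Slc4a1, was no longer so without that library. The proton pump list of intercalated cells also holds the transcription factor Foxi1. Of its 11 genes, 4 were lower at an unadjusted p under 0.05 and none higher: Atp6v1a, Atp6v1b1, Atp6v1h and Atp6ap1. In both genotypes 5 were negative and none positive, and the list median was -0.02 in wild type and -0.17 in the knockout. Atp6v1g3 was at 0.22 in wild type and -0.43 in the knockout, and Atp6v0d2 at 0.19 and -0.25. Atp6v1a differed by -0.23 (adjusted p = 0.161) and Atp6v1b1, the intercalated cell form of the B subunit, by -0.16 (adjusted p = 0.245). For ammonia, Glud1, glutamate dehydrogenase (-0.31, adjusted p = 0.346), was not called, and 3 of 17 genes of this list were lower and 1 higher at an unadjusted p under 0.05, or 5 and 1 without wild-type bicarbonate replicate 3.

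Ddah1, which clears methylarginine inhibitors of nitric oxide synthesis, fell by 0.31 on the log2 scale (limma adjusted p = 0.0483). Esr1, the estrogen receptor alpha, was at 2.34, 1.85, 2.17 and 2.06 RPKM in wild type on water, 1.05, 1.11, 1.28 and 1.44 in wild type on bicarbonate, 1.41, 1.91, 1.54 and 1.78 in the knockout on water and 1.16, 0.941, 1.34 and 1.45 in the knockout on bicarbonate. Its wild-type drinks were apart and its knockout drinks overlapped, with a fall of 0.58 (adjusted p = 0.0471).

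The other lower calls came from no list of transport or metabolism. Ascc1, of the activating signal cointegrator complex, was at 30.7, 27.8, 26.1 and 30.2 RPKM in wild type on water, 20.5, 22.7, 21.6 and 26.6 in wild type on bicarbonate, 36.8, 39.6, 33.5 and 33.9 in the knockout on water and 25.9, 28.4, 27.4 and 25.6 in the knockout on bicarbonate. Knockout means were the higher ones on both drinks, the knockout drinks were apart and the wild-type drinks overlapped narrowly, at a difference of -0.37 ± 0.06 (SE, limma adjusted p = 0.0150). Spc25, a kinetochore protein, was at 50.6, 46.9, 63.4 and 65.8 RPKM in wild type on water, 43.3, 41.8, 38.0 and 53.1 in wild type on bicarbonate, 61.2, 55.3, 55.0 and 51.8 in the knockout on water and 32.5, 31.0, 33.7 and 33.1 in the knockout on bicarbonate. The knockout drinks were apart and the wild-type drinks overlapped. The knockout fall (-0.77) exceeded that of wild type (-0.36), at an unadjusted interaction p of 0.0207. The pooled difference of Spc25 was -0.57 (adjusted p = 0.0157), and it was the 1 member of 19 tested cell cycle genes at an unadjusted p under 0.05, where 3 were without wild-type bicarbonate replicate 3. Tcea3, a transcription elongation factor, fell by 0.29, Tbc1d19 by 0.32 and Malrd1 by 0.56 (adjusted p = 0.0429 for each).

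On the higher side, Fam20a changed most. It encodes a pseudokinase of the secretory pathway, and its loss causes enamel-renal syndrome with kidney calcification. It was at 1.41, 1.72, 2.40 and 1.77 RPKM in wild type on water, 3.07, 3.57, 4.01 and 2.51 in wild type on bicarbonate, 2.12, 1.63, 1.65 and 1.62 in the knockout on water and 3.53, 3.01, 3.66 and 2.33 in the knockout on bicarbonate. Every bicarbonate library was above every water library of its genotype, although the lowest, knockout replicate 4, did not reach wild-type water replicate 3. It rose by 0.81 ± 0.13 on the log2 scale (SE, adjusted p = 0.0150 in limma), a rise of 74.8%, with 0.82 in wild type and 0.79 in the knockout.

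Bex4 and Bex3, small X-linked proteins of 1 family, rose together. Bex4 was at 29.7, 25.7, 29.6 and 29.1 RPKM in wild type on water, 37.1, 36.8, 42.7 and 34.4 in wild type on bicarbonate, 25.2, 30.6, 28.1 and 23.8 in the knockout on water and 34.9, 32.8, 36.1 and 32.0 in the knockout on bicarbonate, and Bex3 at 19.4, 17.9, 16.3 and 16.8 RPKM in wild type on water, 25.1, 28.8, 31.1 and 20.2 in wild type on bicarbonate, 30.8, 22.0, 22.8 and 26.1 in the knockout on water and 32.9, 32.8, 34.6 and 34.3 in the knockout on bicarbonate. Neither gene overlapped between drinks within a genotype, and Bex3 had the higher levels in the knockout. The differences were 0.37 ± 0.06 (SE, limma adjusted p = 0.0157) for Bex4 and 0.49 ± 0.09 (adjusted p = 0.0294) for Bex3. Stat5a, a transcription factor of cytokine and hormone receptors, was at 5.89, 5.95, 5.96 and 5.56 RPKM in wild type on water, 7.85, 7.43, 7.93 and 7.44 in wild type on bicarbonate, 4.76, 5.48, 5.72 and 6.29 in the knockout on water and 7.32, 6.43, 6.34 and 6.63 in the knockout on bicarbonate. It was apart in both genotypes and rose by 0.32 ± 0.06 (adjusted p = 0.0375).

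Ptbp1, a repressor of exon splicing, was at 69.7, 68.8, 66.1 and 77.2 RPKM in wild type on water, 92.4, 105, 91.3 and 103 in wild type on bicarbonate, 109, 95.4, 114 and 103 in the knockout on water and 122, 131, 115 and 114 in the knockout on bicarbonate. The wild-type drinks were apart, the knockout drinks overlapped, and the knockout means were higher on both drinks. It rose by 0.33 ± 0.06 (SE, limma adjusted p = 0.0339), 0.47 in wild type and 0.20 in the knockout, with an unadjusted interaction p of 0.0198. Rasa3, a GTPase-activating protein for Ras and Rap, was at 1.92, 2.02, 2.01 and 1.89 RPKM in wild type on water, 3.11, 3.68, 2.99 and 4.26 in wild type on bicarbonate, 1.90, 1.54, 2.35 and 2.14 in the knockout on water and 2.49, 2.38, 2.45 and 2.63 in the knockout on bicarbonate. Both genotypes were apart for Rasa3, which rose by 0.56 ± 0.11 (adjusted p = 0.0429) and by more in wild type (0.80) than in the knockout (0.33), at an unadjusted interaction p of 0.0297.

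Acsl1, the synthetase that activates long-chain fatty acids, was at 167, 153, 189.6 and 149 RPKM in wild type on water, 254, 248, 247 and 179.8 in wild type on bicarbonate, 183, 172, 162 and 193 in the knockout on water and 229, 217, 256 and 231 in the knockout on bicarbonate. The knockout drinks were apart, and in wild type bicarbonate replicate 4 fell within the water range. The rise was 0.44 ± 0.07 (SE, limma adjusted p = 0.0198), 0.49 in wild type and 0.39 in the knockout. Other genes of fatty acid use were read from a list that does not hold Acsl1. Of 40 genes of fatty acid oxidation and PPAR alpha, a fasting-responsive receptor, none was called, and 6 were higher and 1 lower at an unadjusted p under 0.05, or 5 and 2 without wild-type bicarbonate replicate 3. Acot1, an acyl-CoA thioesterase, went from 24.7 ± 9.52 to 54.3 ± 19.96 RPKM in wild type and from 22.6 ± 7.79 to 26.1 ± 3.61 RPKM in the knockout (SD, n = 4 each), a response of 1.14 against 0.27. Ehhadh, of the peroxisomal pathway, responded by 0.76 and 0.07, and Pdk4, which spares pyruvate, by 0.79 and 0.27. The unadjusted interaction p was 0.0644 for Acot1, 0.0552 for Ehhadh and 0.278 for Pdk4, so the difference between genotypes did not pass 0.05 for these genes.

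Principal cell markers were the list with the largest share of members higher at an unadjusted p under 0.05, and none was called. Of 9 tested, 4 were higher at an unadjusted p under 0.05, none was lower, and 7 were positive in both genotypes, against 5.18%, 5.79% and 26.8% of all genes. Aqp2, the vasopressin-regulated water channel, was at 121, 156, 94.2 and 157 RPKM in wild type on water, 221, 178, 99.4 and 175 in wild type on bicarbonate, 104, 106, 116 and 107 in the knockout on water and 192, 147, 124 and 125 in the knockout on bicarbonate. The drinks overlapped in wild type and were apart in the knockout, at a difference of 0.37 ± 0.15 (SE, limma adjusted p = 0.369). Aqp3, the basolateral water channel (0.27, adjusted p = 0.226), Scnn1g, a subunit of the epithelial sodium channel (0.20, adjusted p = 0.208), and Hsd11b2, which protects the mineralocorticoid receptor from glucocorticoids (0.15, adjusted p = 0.267), were likewise not called. The summed level of the 9 markers was 302 to 406 RPKM in wild type on water and 325 to 467 RPKM on bicarbonate, and 298 to 362 RPKM and 362 to 466 RPKM in the knockout. These ranges overlapped in wild type and were narrowly apart in the knockout, and their part in the values above was not tested. Of the 22 insulin and IGF signalling genes tested, none was at an unadjusted p under 0.05.

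**Figure D4:**
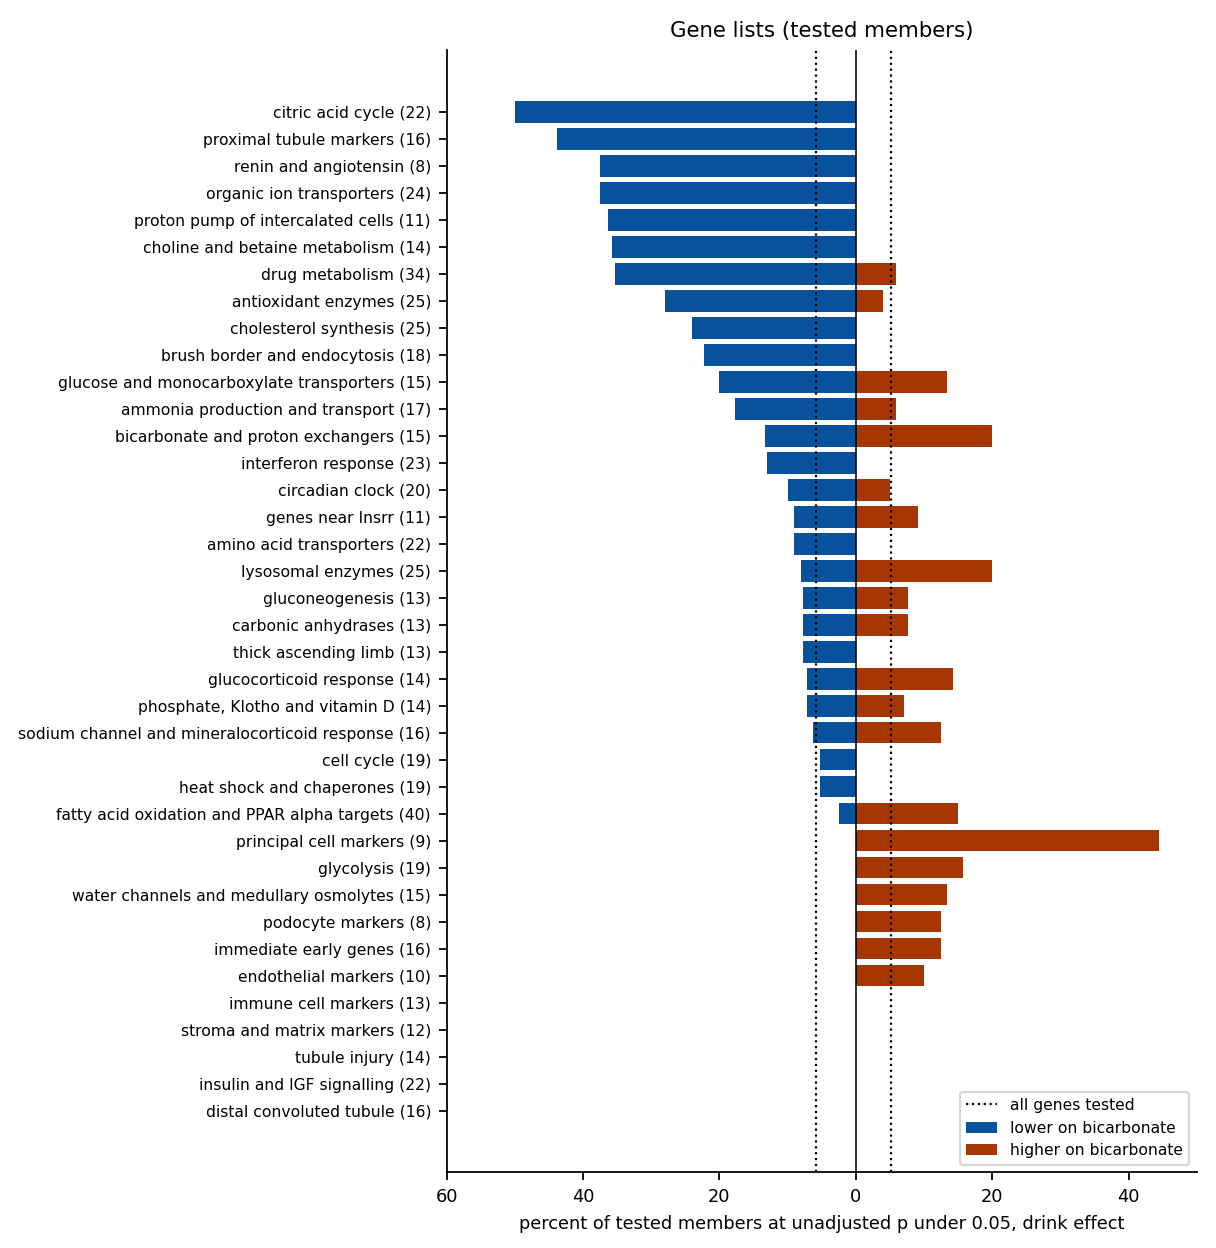
Bars give the percent of each list's tested members (number in brackets) at an unadjusted p under 0.05 in the drink effect, lower to the left and higher to the right, for lists of at least 8 tested genes. Dotted lines mark all genes tested (5.79% lower and 5.18% higher). The citric acid cycle list (11 of 22 members) reaches farthest to the left and the principal cell markers (4 of 9) farthest to the right.

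Without any variance model, 55 genes (0.425%) had bicarbonate and water libraries apart in both genotypes in the same direction, 41 lower (0.317%) and 14 higher (0.108%). In opposite directions there were 11 (0.0850%). The 10 genes of each direction with the smallest p among the 55 held 5 that missed the threshold, among them Ndrg2 (0.20, limma adjusted p = 0.1004), Tspan1 (0.29, adjusted p = 0.113), Mapk8ip1 (0.27, adjusted p = 0.113) and Scrib, a polarity scaffold (0.38, adjusted p = 0.122). All 5 had positive differences. The members nearest the threshold were Gatb, Esr1 and Ddah1 inside it, at adjusted p of 0.0465, 0.0471 and 0.0483. Mdk, Ankrd13b and Flcn lay outside it, at 0.0524, 0.0540 and 0.0540.

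A formal test of whether the response differed between genotypes called 2 genes (0.0155%), Gm5096 and Sh3bp5l, and neither is among the 41. At an unadjusted p under 0.05 the interaction gave 1060 genes (8.19%), among them 5 of the 41, which include Spc25, Slc6a20b, Ptbp1 and Rasa3. For the other 36 the interaction p was above 0.05, which does not show equal responses. With 4 animals a group the 95% intervals of the interaction remain wide. They ran from 0.03 with a 95% interval of -0.12 to 0.18 for Mpc1 to -0.60 with a 95% interval of -1.86 to 0.66 for Nat8f5.

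**Figure D5:**
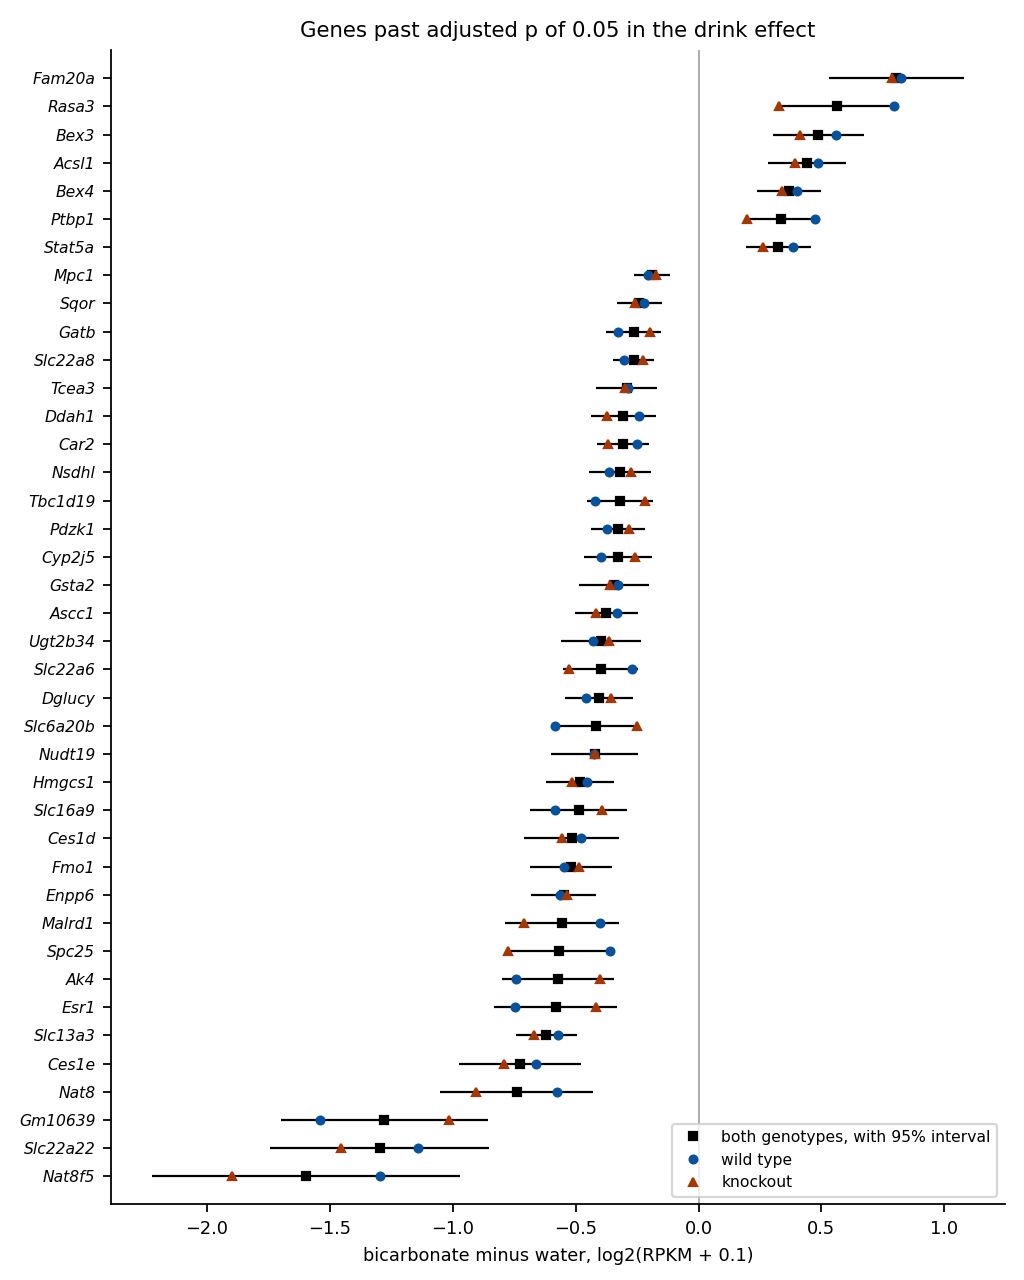
Log2(RPKM + 0.1) difference, bicarbonate minus water, of 40 of the 41 called genes, with the pooled estimate and its 95% interval (black squares and lines) and the wild-type (blue circles) and knockout (brown triangles) responses. The markers of both genotypes lie on the same side of 0 for every gene drawn, and the pooled values run from -1.60 for Nat8f5 to 0.81 for Fam20a.

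How firmly a call stood depended on single libraries. With each library left out in turn, 14 genes kept an adjusted p under 0.05 every time: Slc13a3, Enpp6, Hmgcs1, Slc22a8, Fmo1, Gm10639, Pdzk1, Ascc1, Dglucy, Fam20a, Car2, Ces1e, Slc22a22 and Spc25. The highest adjusted p in those fits was 0.000844 for Slc13a3, 0.00492 for Enpp6 and 0.0244 for Hmgcs1. Bex4 lost its call without 1 library, knockout bicarbonate replicate 3 (adjusted p = 0.0507). Acsl1 and Slc6a20b lost theirs without any of the same 5 libraries, which were wild-type water replicate 4, wild-type bicarbonate replicates 1 and 2, knockout water replicate 3 and knockout bicarbonate replicate 3, with p up to 0.0635 and 0.0770. The remaining 24 called genes lost their call without at least 7 of the 16 libraries in turn, with adjusted p up to 0.117. No left-out library changed the sign of any of the 41. Without wild-type bicarbonate replicate 3, the library that stood apart, 53 genes were called and 36 of the 41 were among them. The number of calls was lowest, at 15, without wild-type bicarbonate replicate 2 or without knockout bicarbonate replicate 3.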

How the data were processed

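The deposited table gives RPKM per gene, made by the authors, with 1 column for each of the 16 libraries. Per the submitters' processing notes Salmon 1.5.2, edgeR 3.34.0 and the builds GRCm39 and mm10 played a part, each named without a role, and which annotation underlies the table is therefore not known here. A gene entered the tests when at least 4 libraries reached 0.5 RPKM, which kept 12943 of 13430 genes. Values were analysed as log2(RPKM + 0.1) in limma 3.58.1 (R 4.3.3), using trended and robust empirical Bayes variances. Drink was fitted with genotype in the model (13 residual degrees of freedom), and responses within a genotype and the interaction came from the 4 group means (12). All tests were two-sided, with Benjamini-Hochberg adjustment over all genes tested and a threshold of 0.05. The scripts were tested on simulated data.

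Members, motifs and the 45 gene lists (702 genes, 645 tested) were chosen with earlier results of these data known. Named genes were Insrr, the called genes with the largest differences or smallest p, genes apart in both genotypes, called members of lists, the 5 smallest interaction p and all tested acid-base exchangers, carbonic anhydrases and intercalated cell markers. Uncalled list members named beside them were chosen after their values were seen. Some genes are counted but not reported here by name, 1 of the called genes among them. Promoter windows were read from RefSeq for GRCm38.p6 and found for 34 of the 41 called genes. Alternatives were 2 pseudocounts, 2 filters, 2 scalings, other variance and group models, array weights, a replicate block, each library left out and, chosen after seeing the data, removal of length and GC trends.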

Additional observations from a re-analysis of the deposited data

Results flagged for a closer look

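In groups of 4 libraries, a library was singled out where its gap to the nearest of the others, as a share of the group's range, exceeded Dixon's 95% critical value. Among 82 genes in 4 groups, 328 tests gave 21 such libraries, where chance gives about 1 in 20.

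Among the called genes the low libraries were wild-type bicarbonate replicate 1 for Slc13a3 (149.5 RPKM), knockout water replicate 4 for Slc22a8 (234 RPKM), wild-type water replicate 2 for Bex4 (25.7 RPKM), wild-type bicarbonate replicate 4 for Acsl1 (179.8 RPKM), knockout bicarbonate replicate 3 for Slc6a20b (49.8 RPKM), wild-type water replicate 3 for Ak4 (126 RPKM) and knockout water replicate 1 for Nudt19 (379 RPKM). Gatb was low in wild-type bicarbonate replicate 2 (20.1 RPKM) and in knockout water replicate 3 (15.8 RPKM). The high libraries were knockout water replicate 1 for Fam20a (2.12 RPKM), knockout bicarbonate replicate 2 for Cyp2j5 (435 RPKM) and knockout water replicate 2 for Tcea3 (48.9 RPKM).

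Among genes not called, low libraries were wild-type water replicate 4 for Ugt1a2 (629 RPKM), wild-type water replicate 2 for Prdx6 (126 RPKM), Per1 (13.4 RPKM) and Slc9a2 (6.44 RPKM), knockout water replicate 1 for Cyp2e1 (91.5 RPKM) and wild-type bicarbonate replicate 3 for Cyp51 (12.4 RPKM). High libraries were knockout water replicate 2 for Prdx6 (138 RPKM), wild-type water replicate 4 for Scnn1g (18.1 RPKM) and knockout bicarbonate replicate 1 for Slc26a4 (17.8 RPKM).

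The response differed between genotypes by the interaction test for 2 genes outside the shared set. Gm5096 had an interaction of 4.99 (limma adjusted p = 0.000697), being at 3.339 ± 1.45 RPKM in wild type on water (SD, n = 4) and listed at 0 in the other groups. Sh3bp5l had an interaction of 1.35 (adjusted p = 0.0471), with 6.49 ± 0.453 and 6.28 ± 0.814 RPKM in wild type on water and bicarbonate and 5.29 ± 0.141 and 13.4 ± 3.08 RPKM in the knockout.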

How the results depend on the processing

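All 41 genes kept their sign under every alternative run, and Slc13a3, Enpp6, Hmgcs1, Fmo1, Gm10639, Dglucy, Fam20a and Slc22a22 kept their call under all of them, single-library omissions included. The number called, which equals the number with the same sign in both genotypes here, was 40 to 57 under either pseudocount, either filter, averaged group contrasts, median-of-ratios scaling and removed length and GC trends. It was 25 without trended or robust variances, 26 after quantile normalization and 68 with array weights, and 15 to 53 with 1 library left out. Quantile normalization changed the split to 20 lower and 6 higher. After group means were removed, same-numbered libraries had correlations of -0.049 to 0.051 across genes, none over 0.1. These values show no strong pairing by the numbers in the labels, but they cannot exclude a weaker one. With the replicate number as a block within genotype 9 genes were called, 8 lower and 1 higher. The count of genes apart in both genotypes, 55, was 62 to 105 with 1 library left out. That count can only grow then, since fewer libraries have to be apart. The 167 genes shared at an unadjusted p under 0.05 became 110 to 192. The 2 interaction calls became 0 with a pseudocount of 0.01, with the stricter filter or with the replicate block, 1 with a pseudocount of 1 or array weights, 4 without trended or robust variances or with length and GC trends removed, and 1 to 5 with 1 library left out. The cause of the other shifts was not tested. Read depth is unknown, so low genes such as Fam20a, Rasa3, Esr1 and Malrd1 carry a counting error that cannot be stated.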

Other observations

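Some other lists leaned one way in both genotypes without a called gene. Of 23 interferon response genes tested, 22 had a negative pooled difference, as did 6215 of all 12943 genes. In both genotypes 13 were negative, against 24.9% of all genes, and 3 were lower at an unadjusted p under 0.05. The list median was -0.18, with -0.28 in wild type and -0.06 in the knockout. Isg15, an interferon-induced ubiquitin-like protein, had a log2 difference of -0.46 (limma adjusted p = 0.419) and Tap1, a peptide transporter of antigen presentation, -0.47 (adjusted p = 0.369). Of 20 circadian clock genes, 12 were negative in both genotypes, with a median of -0.14. Ciart, a clock repressor, was at -0.69 (adjusted p = 0.223) and Per1 at 0.22 (adjusted p = 0.315). The labels used here give no hour of collection.

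Lysosomal enzymes divided. Of 25 tested, 5 were higher and 2 lower at an unadjusted p under 0.05, or 3 and 2 without wild-type bicarbonate replicate 3, with Gusb, beta-glucuronidase, at 0.36 (adjusted p = 0.155). Glycolysis had 3 of 19 genes higher and none lower at that level, or 3 and 2 without that library, among them Pfkp, phosphofructokinase, at 0.36 (adjusted p = 0.298). Kcnj16, a potassium channel subunit of the distal nephron, was at -0.25 (adjusted p = 0.0540) with -0.28 in wild type and -0.22 in the knockout. Zbtb16, a steroid-responsive transcription factor, had a difference of -1.06 with a wide error (SE 0.42, adjusted p = 0.358). These genes were chosen after their values were seen.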
